A study of Drosophila melanogaster with 8 samples.

Results

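The regions described here are stretches of open chromatin that were called as peaks in both female pools and in neither male pool of central brain neurons. Peaks of 4 lists, 1 per pool, were merged wherever they overlapped by at least 1 bp on chromosome arms 2L, 2R, 3L, 3R, 4 and X. Of 14709 merged regions, 502 held a peak of the female fru+ list and of the female fru- list and no male peak, which is 3.41% of all regions. They comprised 137 of 11990 autosomal regions (1.14%) and 365 of 2719 X regions (13.4%). The regions were chosen by the presence or absence of deposited peaks in the 4 lists, so their counts and levels describe the lists and no test was made on them. The opposite pattern, both male lists and neither female list, held 339 regions (2.30%), of which 261 were autosomal (2.18%) and 78 were on X (2.87%).

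The study asked how the chromatin of neurons that transcribe fruitless (fru) differs with sex and with the male-specific FruM protein. ATAC-seq, in which the Tn5 transposase cuts and tags accessible DNA, was applied to sorted Drosophila melanogaster neurons. Sex and reporter status gave 4 groups, male and female fru+ and male and female fru-, with 2 replicates each (8 samples), and the deposited list of each group is described as pooled. All flies had the w1118 strain background, were adults aged 2 to 7 days, and carried UAS-mCD8-GFP over MB247-Gal80 together with Fru-GAL4 over TM2 or TM6B. The fru+ pools were GFP-positive cells and the fru- pools were GFP-negative cells from the same brains, with optic lobes removed. Because MB247-Gal80 silences the reporter in mushroom body Kenyon cells, fru-transcribing Kenyon cells were sorted into the fru- pools. Every group therefore had the same genotype, and the groups differed in sex and in reporter signal.

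Male flies carry a single X chromosome and female flies a pair. In males the dosage compensation complex, which contains the roX RNAs, binds the X and raises its transcription. Sex-specific splicing through transformer yields female or male forms of Doublesex and, in males, the FruM protein. A region seen in both female pools was called in GFP-positive and in GFP-negative cells. Accessible sites away from promoters often act as enhancers of a gene nearby.

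Labels and peak names limited what sex could mean in these lists. Groups were taken from the sample titles. The descriptions attached to the female fru+ samples carry the name of male fru-, and those of male fru- carry the name of female fru+. X-linked peaks numbered 2272 of 11217 in female fru+ (20.3%) and 2334 of 11602 in female fru- (20.1%), against 1696 of 11295 in male fru+ and 1674 of 11206 in male fru- (14.9%). Peaks covered 240 bp and 246 bp of roX1 in the female lists and 1725 bp and 1711 bp in the male lists. The male lists held 6 and 7 peaks on Y and each female list held 1. These values followed the titles. Single peaks were named after replicate 1 in the male lists and after replicate 2 in the female ones, although the lists are described as pooled. If the names hold, sex and replicate cannot be told apart. The pan-neuronal genes nSyb, elav and brp held peaks in all 4 lists. Of 4 glial genes, repo and alrm held no peak in any list, while Gs2 (1 or 2 peaks) and nrv2 (1 peak) held peaks in all 4. The genome-wide background of coverage, recovered from each list, was 14.3 fragments for female fru+ and 16.4 for female fru-, below the 18.0 of male fru+ and 18.9 of male fru-. The female lists, which define the regions, were thus the shallower lists. There was 1 list per group and hence no replicate error, and the 95% Wilson intervals given below cover counting error only.

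The sequences at the summits of 7 of these regions are printed as examples: promoters and distal sites, autosomal and X-linked, with and without the motifs searched. They do not reflect how common each kind was among the members. Each is the plus strand of 200 bp of dm6 around the stronger summit and may run past the edge of the called region. Capitals mark any match, on either strand, to 1 of 6 motifs: GAGAGA, a GA repeat of the kind bound by GAGA factor and CLAMP, ACAATGT, the core of the Doublesex site, TATCGATA, the DNA replication-related element, TAATTA, a homeodomain core, CAGCTG, an E-box, and CAGGTAG, the Zelda site.
CycA promoter, chr3L:11833526-11833725: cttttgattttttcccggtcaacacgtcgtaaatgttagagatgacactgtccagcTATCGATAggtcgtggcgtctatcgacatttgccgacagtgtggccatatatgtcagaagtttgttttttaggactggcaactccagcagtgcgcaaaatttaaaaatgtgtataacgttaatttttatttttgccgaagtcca
Sil1 promoter, chr3R:25235442-25235641: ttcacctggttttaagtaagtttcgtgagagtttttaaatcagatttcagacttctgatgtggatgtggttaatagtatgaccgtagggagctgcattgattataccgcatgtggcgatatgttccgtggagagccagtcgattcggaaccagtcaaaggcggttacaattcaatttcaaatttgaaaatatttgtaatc
E23 intron, chr2L:3339636-3339835: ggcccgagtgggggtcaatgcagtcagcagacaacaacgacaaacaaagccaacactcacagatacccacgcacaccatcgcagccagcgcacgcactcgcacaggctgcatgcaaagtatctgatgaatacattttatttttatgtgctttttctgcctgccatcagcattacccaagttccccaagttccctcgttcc
region nearest CG44290, chr3R:27444331-27444530: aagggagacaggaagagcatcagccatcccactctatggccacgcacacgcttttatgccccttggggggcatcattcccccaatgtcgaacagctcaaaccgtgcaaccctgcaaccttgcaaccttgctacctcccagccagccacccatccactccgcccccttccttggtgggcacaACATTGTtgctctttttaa
region nearest CG41099, chr3R:3843013-3843212: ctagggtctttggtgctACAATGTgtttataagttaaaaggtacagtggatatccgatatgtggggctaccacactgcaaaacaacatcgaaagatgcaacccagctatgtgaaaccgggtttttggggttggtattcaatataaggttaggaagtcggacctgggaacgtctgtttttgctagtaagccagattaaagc
CG11444 promoter, chrX:4554115-4554314: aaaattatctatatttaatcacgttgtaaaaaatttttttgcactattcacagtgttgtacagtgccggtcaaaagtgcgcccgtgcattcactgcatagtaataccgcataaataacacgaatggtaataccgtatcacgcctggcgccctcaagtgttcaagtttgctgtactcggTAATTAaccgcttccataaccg
dnc exon, chrX:3332621-3332820: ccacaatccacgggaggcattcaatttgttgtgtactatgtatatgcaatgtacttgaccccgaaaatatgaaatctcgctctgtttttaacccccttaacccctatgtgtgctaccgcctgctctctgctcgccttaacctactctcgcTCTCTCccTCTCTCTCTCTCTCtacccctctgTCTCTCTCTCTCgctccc

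CycA, which encodes Cyclin A, carried the replication-related element near its start site, and Sil1 and E23 carried no match in this window. The CG44290 and CG41099 sites each held 1 ACAATGT core, on the minus strand in the first and on the plus strand in the second. The CG41099 region overlapped an annotated transposable element. The dnc site held runs of TCTCTC, the reverse complement of GAGAGA. A match is a description of these letters and not evidence of binding.

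The autosomal regions took similar shares of the major arms. There were 35 on 2L (1.22% of the regions of that arm), 29 on 2R (1.05%), 30 on 3L (1.08%) and 43 on 3R (1.24%), and the 4 intervals overlapped. On chromosome 4, 0 of 143 regions had the pattern, which allows a share of up to 2.62%. On X the share was 13.4% (12.2 to 14.8), or 15.5 regions per Mb against 1.07 to 1.49 per Mb on the major autosomal arms. Regions of the opposite pattern took 1.88% to 2.87% of each arm, X included. Most of the female-only regions were thus X-linked (365 of 502, 72.7%).

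**Figure D1:**
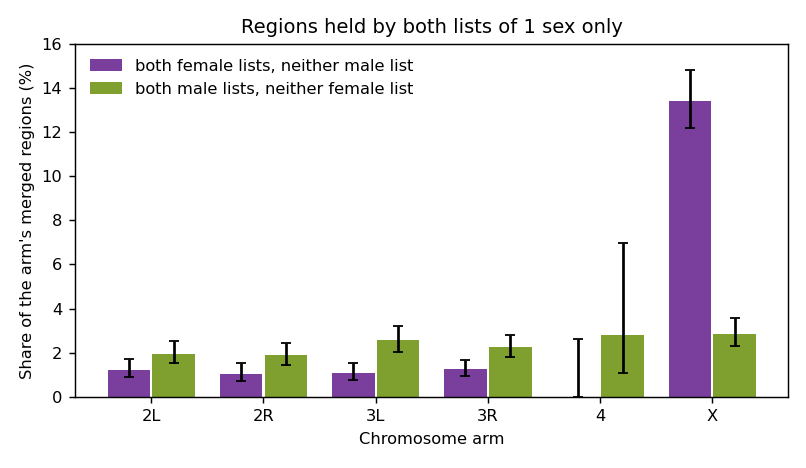
Share of merged regions per chromosome arm (percent, y axis) that were in both female lists and neither male list, or in both male lists and neither female list. Bars are shares and error bars are 95% Wilson intervals. The female-only share was 13.4% on X and at most 1.24% on any autosomal arm, whereas the male-only share lay between 1.88% and 2.87%.

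The number of X copies and the female-only pattern on X cannot be told apart in these lists. The summit pileup and local background of each peak were recovered from its fold enrichment and p-value. The caller's threshold was then applied again with the female pileup reduced by 50% and the local background unchanged. Of the 365 X regions, 22 (6.03%, 4.01 to 8.96) would then have passed in both female lists and 73 in at least 1. Of the 1330 X regions present in all 4 lists, 1083 (81.4%) would have passed in both. For comparison, 2 of the 137 autosomal regions (1.46%) and 4760 of the 6926 autosomal regions present in all 4 lists (68.7%) would have passed at such a pileup. At an unchanged background, most female-only regions, X-linked and autosomal, thus had less than 2 times the coverage that the caller needed in at least 1 female list. The part of X copy number in this was not tested. The autosomes are present in equal number in both sexes, so their 137 regions are described first and apart. Presence or absence in these lists is not a test of a sex difference. In the paper's comparison of male and female fru- replicates, nearly all differing peaks were on X.

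Female-only regions were weak peaks. Fold enrichment is the summit pileup over the local background. Autosomal members had a median fold of 2.82 (range 1.98 to 4.92) in female fru+. In female fru- it was 2.70 (range 1.65 to 5.12). X members had medians of 3.08 (1.86 to 7.47) and 3.05 (1.73 to 8.05). The lists themselves had medians of 4.31 and 4.32. The deposited significance, -log10 of the q-value, had medians of 8.73 and 8.32 for the autosomal members and 10.3 and 11.8 for the X members, where the authors required at least 3. Values of at least 10 in both lists were held by 26 autosomal members (19.0%) and 143 X members (39.2%).

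To rank regions, strength was taken as the lower of the percentile ranks of the q-value in the 2 female lists. Median strength was 9.92 for the autosomal members and 17.6 for the X members, so that a typical region was among the weaker peaks of at least 1 list. Strength exceeded 50 for 1 autosomal member and 4 X members, and was under 10 for 69 (50.4%) and 101 (27.7%). Across members, -log10 q in the 2 lists had a Pearson r of 0.48 (log scale) and a Spearman rho of 0.39 on the autosomes (n = 137), and 0.54 and 0.48 on X (n = 365). These are descriptions across regions, which share the 2 libraries.

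**Figure D2:**
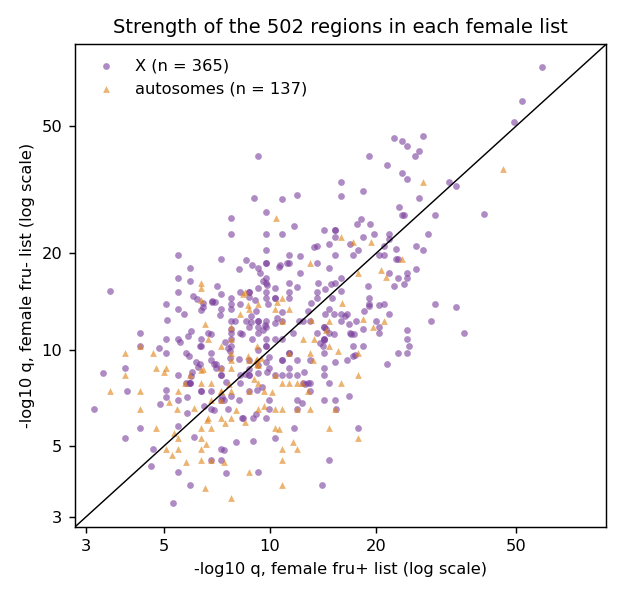
Significance (-log10 q, log scale) of each female-only region in the female fru+ list (x axis) and the female fru- list (y axis), with X regions as circles and autosomal regions as triangles. The line marks equal values. The autosomal regions had medians of 8.73 and 8.32, and the highest was 45.7 and 36.7.

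The values just inside and just outside the pattern, which decided membership, are given as a description. The lower of the 2 female -log10 q values had a median of 7.28 over the autosomal members, of which 25 lay below 5. For the 693 autosomal regions in both female lists and 1 male list, the value taken was that of the male peak. It had a median of 11.9, with 15 below 5. The 421 and 394 autosomal regions called in female fru+ only and in female fru- only had medians of 6.72 and 6.96. On X the members had a median of 9.23, against 9.99 for the 253 regions that also had 1 male peak. The 230 and 286 X regions called in female fru+ only and in female fru- only had medians of 7.28 and 7.34. The values of members are the lower of 2 female values, and the others are 1 value from a male or a female list. They are therefore set side by side without a comparison.

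The regions were narrow, with median widths of 345 bp (autosomes) and 411 bp (X) against 545 bp and 547 bp over all regions of the same chromosomes. Male-only regions had median widths of 354 bp (autosomes) and 460 bp (X). The summits of the 2 female lists fell within 100 bp of each other in 99 of 137 autosomal (72.3%) and 278 of 365 X members (76.2%). A region with a male peak lay within 500 bp of 16 autosomal members (11.7%), near the 9.16% of all autosomal regions. On X it was 12 members (3.29%, 1.89 to 5.66), against 7.17% of all X regions. A search of the genome found no similar copy of any member. An annotated transposable element overlapped 2 autosomal members, among them the region nearest to CG41099, and 2 X members.

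Most female-only regions lay away from promoters. Of the autosomal members, 12 were within 50 bp of a start site (8.76%, 5.08 to 14.7), against 38.8% of all autosomal regions, 16.1% of the autosomal male-only regions and 59.3% of those in all 4 lists. Introns held 68 (49.6%, 41.4 to 57.9), against 31.1% of all and 40.6% (34.8 to 46.7) of the autosomal male-only regions. Intergenic sequence held 45 (32.8%, 25.5 to 41.1), against 21.7% and 28.7% (23.6 to 34.5). For both classes the intervals of the female-only and male-only regions overlapped. Other exons held 9 and 3' UTRs 3. On X, 35 were promoters (9.59%), against 34.7% of all X regions and a similar 8.97% of the X male-only regions. Introns held 216 X members (59.2%), against 38.8% of all X regions and 7.69% of the male-only ones. The 16 X members in 3' UTRs were 4.38% of the set, whereas 3' UTRs held 45 of the 78 X regions open only in males (57.7%). No interval of the promoter shares reached the share of all regions on the same chromosomes. The median distance to a start site was 4072 bp (autosomes) and 5993 bp (X).

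**Figure D3:**
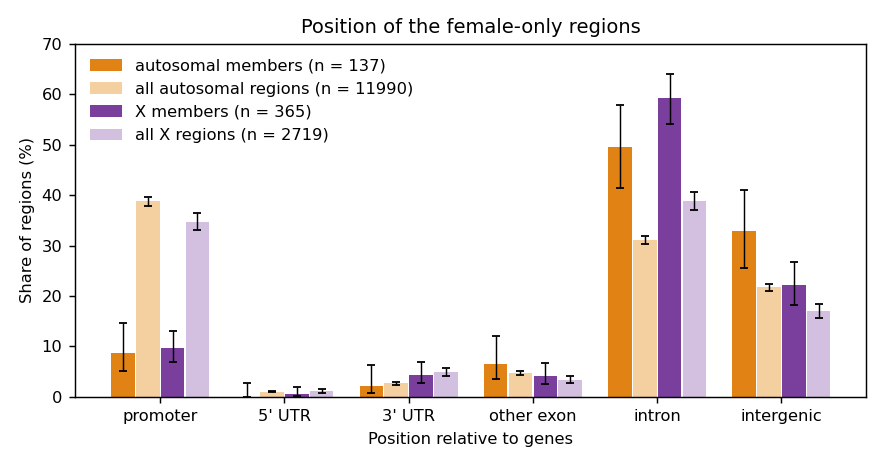
Position of regions relative to genes, as a share of each set (percent, y axis), for the autosomal and X members and for all autosomal and X regions. Error bars are 95% Wilson intervals. Promoters made up 8.76% and 9.59% of the members against 38.8% and 34.7% of all regions.

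The start sites of the genes concerned were mostly open in both sexes. Of the 125 autosomal members outside promoters, 79 (63.2%) were given to a gene with a start-site region in all 4 lists, compared with 60.9% of all autosomal regions outside promoters. On X it was 229 of 330 (69.4%) against 68.2%. Both shares were near the background. The assigned gene was protein-coding for 120 autosomal members (87.6%) and 322 X members (88.2%).

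The strongest autosomal region was in an intron of Sik3 (FBgn0262103), a salt-inducible protein kinase, at chr2R:18689840-18690134. Its fold was 3.64 in female fru+ and 3.25 in female fru-, with -log10 q of 45.7 and 36.7. The local background there was 49.2 and 51.7 fragments, well above the genome-wide 14.3 and 16.4, and a region with a male peak lay 502 bp away. It was the only autosomal member with strength above 50.

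CycA (FBgn0000404) had the largest folds of any autosomal member. Its region, chr3L:11833342-11833671, covered the start site of this cell cycle gene, and its fold was 4.92 in female fru+ and 5.12 in female fru- (-log10 q of 27.2 and 33.4). The local background equalled the genome-wide value in both lists, and the nearest region with a male peak was 3095 bp away. At Sil1 (FBgn0039296), which encodes a nucleotide exchange factor of an endoplasmic reticulum chaperone, the region chr3R:25235336-25235587 covered the start site with folds of 3.93 and 4.14. The nearest male peak there was 11479 bp away. Neither gene had a start-site region in all 4 lists.

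The other 6 promoters of protein-coding genes with the highest strength were weaker. Naa40, which encodes an N-terminal acetyltransferase, had folds of 2.88 in female fru+ and 3.03 in female fru-. Gem2, a member of the survival motor neuron complex that assembles spliceosomal particles, had 3.45 and 2.72. Golgin84, a structural protein of the Golgi, had 3.28 and 2.93. Ts, the thymidylate synthase gene, had 2.82 and 2.87. CG10126 had 2.90 and 3.51, and CG32069 had 2.88 and 3.28. None of these 6 had a -log10 q above 20 in either list, in contrast to CycA and Sil1, for which at least 1 list passed 20.

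After Sik3, the next 4 intronic or intergenic autosomal sites by strength had folds between 3.38 and 4.59. E23, an ecdysone-inducible ABC transporter, held a site in an intron at chr2L:3339546-3339860 with folds of 4.12 in female fru+ and 4.14 in female fru-. The intergenic region nearest to CG44290, chr3R:27444301-27444738, had 4.59 and 3.91, and that nearest to CG41099, chr3R:3842963-3843212, had 3.80 and 4.20. These regions had their nearest male peak 3057 bp, 4856 bp and 3370 bp away. Next to fz, the Frizzled receptor of Wnt signals, a region at chr3L:14272844-14273033 had 4.05 and 3.38. The other members among the 20 strongest were at CG42784, GEFmeso, CG12617, rgn, CG9582, CG4238, fra, nAChRalpha6, rdx, CG9743, CG30222, CG43373 and ab, and their folds lay between 1.84 and 4.33.

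Levels differed between the 2 female pools at a few of these sites. In an intron of nAChRalpha6, a nicotinic acetylcholine receptor subunit, the fold at chr2L:9830032-9830347 was 4.33 in female fru+ and 3.22 in female fru-. At the region nearest to CG9743 it was 4.12 and 3.16. Over all autosomal members, 52 of 137 (38.0%, 30.3 to 46.3) ranked higher in female fru- than in female fru+, with a median difference in rank of -2.98 points. The member in an intron of abrupt (ab), which encodes a BTB zinc finger factor, had the lowest folds of the 20, 1.98 and 1.84, on the highest local background, 87.3 and 93.2 fragments. Without replicates these differences had no error to be set against.

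**Figure D4:**
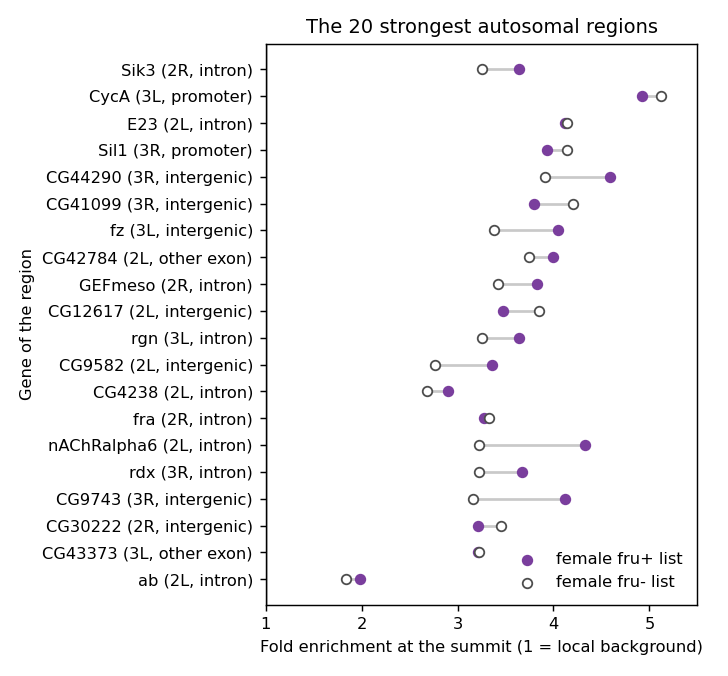
Fold enrichment at the summit (x axis, 1 is the local background) of the 20 autosomal female-only regions of highest strength, labelled by gene, arm and position class. Filled points are the female fru+ list and open points the female fru- list. CycA was highest, at 4.92 and 5.12, and ab lowest, at 1.98 and 1.84.

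The 137 autosomal members were given to 124 genes, and 11 genes had 2 or more. bru3, which encodes an RNA-binding protein of the CELF family, had 3 members among 61 regions over its 281494 bp, and 20 of the 61 were in all 4 lists. tei, an immunoglobulin adhesion gene, had 3 among 31 regions, at chr2R:13634751-13635570, chr2R:13629708-13629975 and chr2R:13741190-13741447, with folds between 2.32 and 3.16. Sema1a, a transmembrane semaphorin, had 2 of 24 regions, and pum, a translational repressor, had 2 of 39. The others with 2 were CG43861, CG5397, fz, heca, lncRNA:CR46350, plum and sbb. At 9 of the 11 genes a start-site region was present in all 4 lists. These genes held between 5 and 61 regions each, so several members in 1 gene is not particular to it.

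The lists of genes below were drawn up with earlier results of these data known and are described by counts. Axon guidance and cell adhesion was the list with the most autosomal members. Its 80 autosomal genes held 15 members at 12 genes, 10.9% of the members (6.75 to 17.3), while 4.98% of all autosomal regions belonged to the list. All 15 lay outside promoters, where they made up 12.0% of members against 7.08% of all such regions. The strongest was in an intron of frazzled (fra), a netrin receptor, at chr2R:12555929-12556250, with folds of 3.28 in female fru+ and 3.33 in female fru-. At dpr6, an immunoglobulin protein of synaptic partner choice, the folds were 2.81 and 3.86. At dpr5, of the same family, they were 2.22 and 2.14. Ten-m, a teneurin, had 2.48 and 2.41. kuz, a metalloprotease of the ADAM family that cleaves Notch, had -log10 q of 17.8 and 9.76. Single members also lay at CadN2, Sdc, dpr12, Fas3 and Con, named here to complete the list after their values were seen.

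Neurotransmitter receptors held 5 autosomal members at 5 of 40 genes (3.65%, 1.57 to 8.26, against 1.58% of all autosomal regions), and all were intronic. Beside nAChRalpha6 these were nAChRalpha5, with folds of 3.06 in female fru+ and 2.53 in female fru-, and GluRIB, an ionotropic glutamate receptor, with 2.95 and 2.87. The serotonin receptors 5-HT7 and 5-HT2A had 2.75 and 2.99, and 2.55 and 2.41. Among 24 autosomal channel genes, KCNQ, a voltage-gated potassium channel, held 1 member with 3.67 and 2.99, and this list had 0.730% of the members against 0.609% of autosomal regions. Transcription factors held 2 members (1.46%, against 2.48% of regions), at ab and at luna, a Kruppel-like zinc finger gene. Neuropeptides and their receptors held 0 members at 62 autosomal genes and synapse and vesicle release 0 at 38. To these lists belonged 75 and 85 autosomal regions (0.626% and 0.709%). Both shares lay inside the interval of 0 members, which reached 2.73%.

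Genes of sex determination and dosage compensation held 1 female-only region. Of 15 autosomal and 5 X genes of the sex determination hierarchy, fru held a member and the others held none (0.730% of autosomal members, against 0.350% of autosomal regions). The 7 autosomal and 3 X genes of dosage compensation held 0, where 12 autosomal regions (0.100%) and 3 X regions (0.110%) belonged to that list. The fru member lay in an intron at chr3R:18448752-18449032, 181 bp from a region with a male peak. Its fold was 2.23 in female fru+ and 2.93 in female fru-, with -log10 q of 3.89 and 9.76 and a strength of 0.437. It was among the weakest of the 137. The list of female reproductive behaviour and physiology held 0 autosomal members at 9 genes, to which 19 autosomal regions (0.158%) belonged. Counts of 0 or 1 in lists this small are near the background.

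The X members were given to 185 genes, of which 64 had 2 or more and 26 had 4 or more. Those 26 genes held 152 members (41.6%). They were picked by their number of members, so this share is no measure of concentration. The strongest X member was the promoter of CG11444 (FBgn0029715), chrX:4553828-4554312, with folds of 7.47 in female fru+ and 8.05 in female fru- and -log10 q of 59.0 and 76.1. Its summit pileup was 113 and 139 fragments, and the nearest region with a male peak was 1827 bp away. The promoter of lncRNA:CR43492 followed with 6.95 and 7.01, and an exon of dnc with 6.75 and 6.44. The dnc region, chrX:3332490-3332832, is the one printed above with TCTCTC runs, and the lncRNA:CR43492 promoter also matched GAGAGA. The dnc region was 5028 bp from any region with a male peak. The promoter of CG9919 had 2.93 and 2.77 on a local background of 58.7 and 70.8 fragments. The other 6 of the 10 strongest were at CG42340, CG14626, sl, CG32700, Hr4 and CG5966, with folds from 4.65 to 6.09. sl encodes phospholipase C gamma and Hr4 a nuclear receptor of the ecdysone cascade, and both regions covered a start site.

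Several long genes held the most X members. kirre, an immunoglobulin protein of the nephrin family that spans 394149 bp, held 12 members among 49 regions, with 10 others in all 4 lists. Its strongest member, in an intron at chrX:3047429-3048054, had folds of 4.26 in female fru+ and 3.97 in female fru-. Ten-a, a teneurin, held 10 of 49. CG42340 and Mnr each held 9, of 22 and 18 regions, whereas only 2 regions of each gene were in all 4 lists. dnc, the cAMP phosphodiesterase gene known for its role in learning, held 8 of 27. dpr8 held 8 of 29, lncRNA:CR44997 8 of 25, and shakB, a gap junction innexin, 7 of 30. None of these 8 genes held a region of the male-only pattern, which took 78 of 2719 X regions (2.87%). Of those 78, 57.7% lay in 3' UTRs, and the 8 genes were named for their female-only counts.

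**Figure D5:**
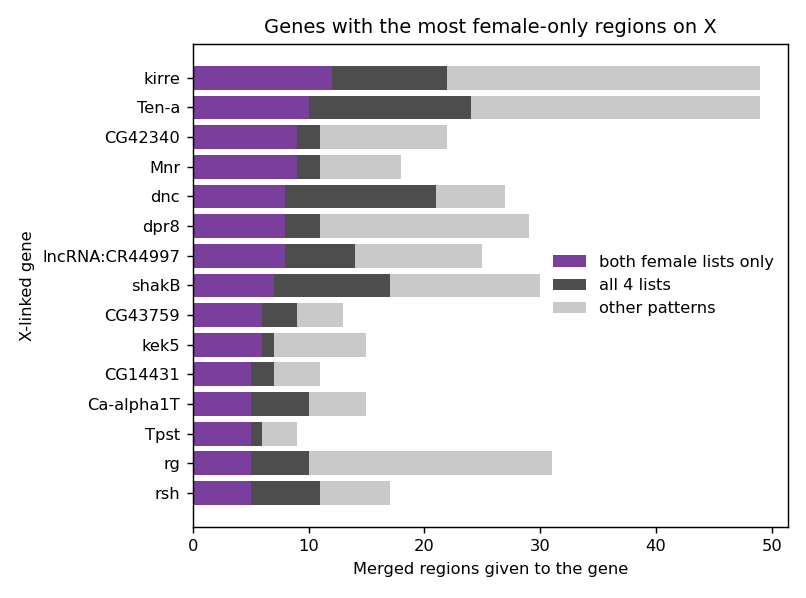
Number of merged regions (x axis) given to the 15 X-linked genes with the most female-only regions. Bar segments are regions in both female lists only, in all 4 lists and of any other pattern. kirre had 12 female-only regions of 49 and Ten-a 10 of 49.

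Another 18 genes had 4 to 6 X members. kek5, a leucine-rich repeat transmembrane protein, held 6 of 15 regions and CG43759 6 of 13. Ca-alpha1T, a T-type calcium channel, held 5 of 15, rg, an anchor protein of protein kinase A, 5 of 31, and rsh (radish), a gene of memory, 5 of 17. CG14431 held 5 of 11 and Tpst, a tyrosylprotein sulfotransferase, 5 of 9. With 4 members each were CG32700, Cda4, Dop2R, NetB, Pde9, Ptp10D, asRNA:CR44894, lncRNA:CR44357, mgl, nAChRalpha3 and vex. At 23 of the 26 genes a start-site region was present in all 4 lists.

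On X the adhesion and guidance list again held the most members, 42 at 8 of 17 genes (11.5%, 8.63 to 15.2, against 6.55% of all X regions). Outside promoters it made up 12.4% of members against 9.01% of regions. The strongest was in an intron of Fas2, a homophilic adhesion molecule, at chrX:4180596-4181360, with folds of 5.74 in female fru+ and 4.48 in female fru-. NetA, a secreted guidance cue, had 4.33 and 3.97, and the receptor tyrosine phosphatase Ptp10D had 4.43 and 3.43 at its strongest of 4 sites.

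Receptors and channels on X gave further members. The nicotinic subunit gene nAChRalpha3 held 4 of its 20 regions, and at the strongest the folds were 3.93 in female fru+ and 3.87 in female fru-. Dop2R, a dopamine receptor, held 4 of 13, with 3.85 and 3.13 at the strongest. Together these 8 members were 2.19% of the X members, against 1.40% of X regions. Channels held 7 (1.92%, against 3.05%), at Ca-alpha1T, at SK, a calcium-activated potassium channel with 4.61 and 2.99, and at Sh, the Shaker potassium channel, with 3.72 and 2.51.

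Neuropeptide receptors held 6 X members at 4 of 11 genes (1.64%, against 1.14% of X regions). SPR, the receptor of the male-derived sex peptide, which alters female behaviour after mating, held 1 intronic member at chrX:5454802-5455033. Its fold was 3.15 in female fru+ and 3.56 in female fru-, a strength of 22.3. It was also the single X member of the list of female reproductive behaviour and physiology, which had 6 X genes. This was 0.274% of X members against 0.221% of X regions, near the background. The allatostatin receptor gene AstA-R1 had 3.80 and 3.28 at its stronger site, and the proctolin receptor gene Proc-R had 3.39 and 3.02. hec, a receptor gene known for male courtship, had 3.39 and 2.63. The transcription factor genes ct, Lim1 and mamo held 7 members (1.92%, against 2.28% of X regions). The synapse list held 10 (2.74%, against 2.17%), at dnc and at Tbh, which encodes the enzyme that makes octopamine. Both shares were near the background.

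Sequence at the summits was compared with that of all regions in windows of the same length, 200 bp. ACAATGT, the Doublesex core, was present in 9 of 137 autosomal members (6.57%, 3.49 to 12.0), compared with 3.16% of all autosomal regions, 2.68% of autosomal male-only regions and 2.86% of autosomal regions in all 4 lists. Of the 9, the strongest were the printed CG44290 and CG41099 sites, the latter overlapping a transposable element. The others, named after their matches were seen, were at bru3, CadN2, CecC, CG1688, CG17193, Tmtc1 and CG11262, and the match lay between 4 bp and 94 bp from the summit. In windows of 400 bp the shares were 10.2% (6.19 to 16.4) of members and 6.37% of autosomal regions, so the interval of the members then included the share of all regions. On X the core was in 3.29% of members and 2.57% of regions.

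On the autosomes the other motifs were at or below the level of all regions. GAGAGA was in 8.76% of autosomal members (12 of 137) against 1676 of 11990 autosomal regions, and in 7.95% of X members against 16.6% of X regions. It was in 34.6% of the 78 X regions open only in males. CAGCTG was in 8.03% of autosomal members against 15.2%, and TAATTA in 2.19% against 6.51%. In the autosomal male-only regions these 2 motifs had 15.7% and 8.43%. TATCGATA was in 1 autosomal member (0.730%), the CycA promoter, in 3.20% of autosomal regions and in 0.766% of the autosomal male-only ones. CAGGTAG was in 0.730% of autosomal members and 0.776% of autosomal regions. On X, TAATTA was in 6.85% of members against 5.48% and CAGCTG in 10.4% against 12.4%. In windows of 400 bp the autosomal shares of GAGAGA, of CAGCTG and of TAATTA had intervals that included the shares of all autosomal regions. The members held fewer promoters than all regions did, and the part of this in the motif shares was not tested. GC content of the windows had a median of 49.5% for autosomal and 49.0% for X members, against 48.0% for all regions of either kind.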

How the data were processed

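Reads were trimmed with cutadapt, aligned to dm6 with Bowtie2, cleared of duplicates with Picard, filtered with SAMtools at a mapping quality of 30 and called with MACS2 at an FDR of 0.001, all by the authors, and the versions are not given in the sources used here. The authors deposited 1 peak list per group, without read counts, so depth per sample is unknown and only the recovered background stands for it. The fold enrichment that the authors deposited is the ratio of summit pileup to local background. Significance was deposited as -log10 of a p-value and of a q-value. The deposited score column and the summit offset complete each line, and the offset placed the summits.

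Peaks outside the main arms were left out (12 in each male list, 7 in female fru+ and 5 in female fru-). Peaks were merged at 1 bp of overlap. Genes came from Ensembl 115 (BDGP annotation 6.54), sequence from the RefSeq Release 6 genome, which shares the dm6 coordinates. A region was given to the gene whose start site lay within 50 bp, else to the gene that held its midpoint, else to the nearest start site. Copies were searched with blastn 2.17.0 (at least 95% identity over 80% of the length). Python 3.11.15, numpy 2.4.6 and scipy 1.17.1 were used, and the merging and pattern calls were tested on simulated data. Of the list symbols, 5 had no match and 7 were matched by synonym, which left 441 genes in 9 lists.

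The regions, gene lists and motifs were chosen with earlier results of these data known. Genes named were those of the 20 autosomal and 10 X members of highest strength, those with at least 2 autosomal or 4 X members, the 8 strongest autosomal promoters of protein-coding genes, and up to 6 members per gene list. Alternatives were a -log10 q of at least 5, lists of equal length, 50% reciprocal overlap, a 500 bp margin to male peaks, a 500 bp promoter distance, halved female pileup on X and 400 bp motif windows.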

Additional observations from a re-analysis of the deposited data

How the results depend on the processing

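No paired analysis was possible because each group had 1 pooled list and no result came from a test, and for the same reason no replicate could be left out. Of 46 alternatives, 36 stayed within the bounds set for them and 10 moved. The count of autosomal members ranged from 112 to 189. Reducing the female summit pileup on X by 50%, at an unchanged local background, lowered the count of X members from 365 to 22. That of all members fell from 502 to 159, since fewer X peaks then passed. A promoter distance of 500 bp raised the promoter share of X members from 9.59% to 13.7%. Motif windows of 400 bp hold more sequence. In them the shares of autosomal members rose to 18.2% for GAGAGA, 15.3% for TAATTA and 19.0% for CAGCTG, and those of X members to 15.1% for GAGAGA, 5.75% for ACAATGT, 19.2% for TAATTA and 16.2% for CAGCTG. In such windows all autosomal regions had 21.3% for GAGAGA, 17.5% for TAATTA and 23.8% for CAGCTG, each inside the interval of the autosomal members. For CAGCTG, 545 of 2719 X regions had a match, inside the interval of the X members (12.7 to 20.3), and all X regions had 25.4% for GAGAGA, 5.85% for ACAATGT and 14.6% for TAATTA. Absence from a male list means that no peak passed the threshold, not that the site was closed.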
